A study of Neurospora crassa with 42 samples.

Results

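In the filamentous fungus Neurospora crassa, 98 of 9758 measured genes had lower transcript levels in wild type on cellulose than on medium without carbon. On cellulose in strains that lack the transcription factor CLR-1 or CLR-2, they stayed near the starved level or lay above it. These 98 members were chosen from measured values. For each gene the median over 3 libraries of log2(FPKM + 1) was taken in 4 groups sampled at 4 h, where FPKM is fragments per kilobase of transcript and per 1000000 fragments of the library. A member had a wild type Avicel median at least 1.2 below that of starved wild type. Its medians in Δclr-1 on Avicel and in Δclr-2 on Avicel each lay less than 0.5 below starved wild type, and its mean in starved wild type was at least 5 FPKM. The wild type limits alone were met by 311 genes, of which the deletion limits kept out 213. Since those 4 groups chose the members, differences among them are given as a description, with no test.

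CLR-1 and CLR-2 are zinc cluster transcription factors that switch on cellulase genes when the fungus meets cellulose, and strains that lack either make little cellulase. CLR-3 holds CLR-1 in check in the absence of cellulose, and CRE-1 is the carbon catabolite repressor. OS-1 is the osmosensing histidine kinase, and OS-2 is the MAP kinase at the end of the cascade that OS-1 feeds. A fungus without a carbon source draws on its own stores, and the glyoxylate cycle with gluconeogenesis turns the acetyl units of lipids into sugars.

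Mycelia were grown on sucrose for 16 h at 25 °C in constant light, washed, and moved to Vogel's medium with no carbon source (starved) or with 2% Avicel, which is purified crystalline cellulose. The 6 groups taken at 4 h were Δclr-1 on Avicel, Δclr-2 on Avicel, starved Pccg1-clr-2, starved Δclr-3, wild type on Avicel and starved wild type. The 8 groups taken at 10 h were all starved: Δos-1Δclr-3, Δos-2Δclr-3, Δcre-1Δclr-3, Δcre-1, Δos-2, Δos-1, Δclr-3 and wild type. The wild type strain is FGSC 2489, Δ marks a deletion, and each group holds 3 libraries that the labels call biological replicates. The Pccg1-clr-2 strain carries a clr-2 deletion as well as clr-2 under the promoter of ccg-1, a gene that is itself regulated by the clock and by glucose. Whether any mutant strain is a single isolate is not given in the sources used here. The tissue is mycelium without sorting, so fewer cells of a kind and less RNA per cell cannot be told apart.

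The 42 libraries had an implied depth of 5.18 to 41.2 M fragments at 4 h and 16.3 to 24.8 M at 10 h, where M stands for 1000000. Replicates correlated at 0.993 or above at 10 h, and the lowest correlation at 4 h was 0.927. In wild type at 4 h the libraries least correlated with the others of their group were Avicel replicate 1, at 5.18 M fragments, and starved replicate 2. Each deleted gene was low where it was deleted: clr-1, for example, averaged 1.71 FPKM without the gene, against at least 27.1 FPKM in every group that keeps it. Markers of conidia and aerial hyphae (eas, con-6, con-8, con-10, con-13 and fl, none at 0 in any group) summed to 1282 to 1674 FPKM in Δclr-1, 1885 to 3036 in Δclr-2, 3995 to 11423 in Pccg1-clr-2, 4910 to 7775 in Δclr-3, 1400 to 2432 in wild type on Avicel and 7932 to 15577 in starved wild type at 4 h. That list was high in starved wild type and low in all 3 Avicel groups, the deletion strains included, and its part in the results was not tested.

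The set of members depended on single libraries and on the scaling. Without wild type on Avicel replicate 1 the rule found 98 genes, of which 77 were members; without replicate 2 it found 295 with 82 members, and without replicate 3 it found 275 with 75 members. Leaving out starved wild type replicate 1, 2 or 3 gave 107, 85 and 91 genes, of which 58, 46 and 53 were members. After median-ratio rescaling, which divides each library by the median ratio of its genes to their geometric mean over libraries, 29 genes met the rule, 27 of them members. With the mean in place of the median 176 genes met it, 67 of them members, and with a pseudocount of 0.1 there were 112, of which 91 were members. Avicel replicate 1 of wild type was the highest of its group in 21 members and lay above the lowest starved library in 22. NCU01835 shows it, at 1841, 382 and 374 FPKM in wild type on Avicel, against 924, 1029 and 809 FPKM in starved wild type, as does NCU04249, at 1630.1, 234 and 190.0 FPKM, against 584, 986 and 453 FPKM. Over all 15 settings 11 members met the rule each time: NCU01402, NCU02579, NCU03643, NCU04796, NCU06895, NCU07068, NCU07311, NCU08425, NCU09553, acu-3 and acw-12. NCU03643, NCU04796, NCU06895 and NCU09553 of these are named only because they passed every setting.

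**Figure D1:**
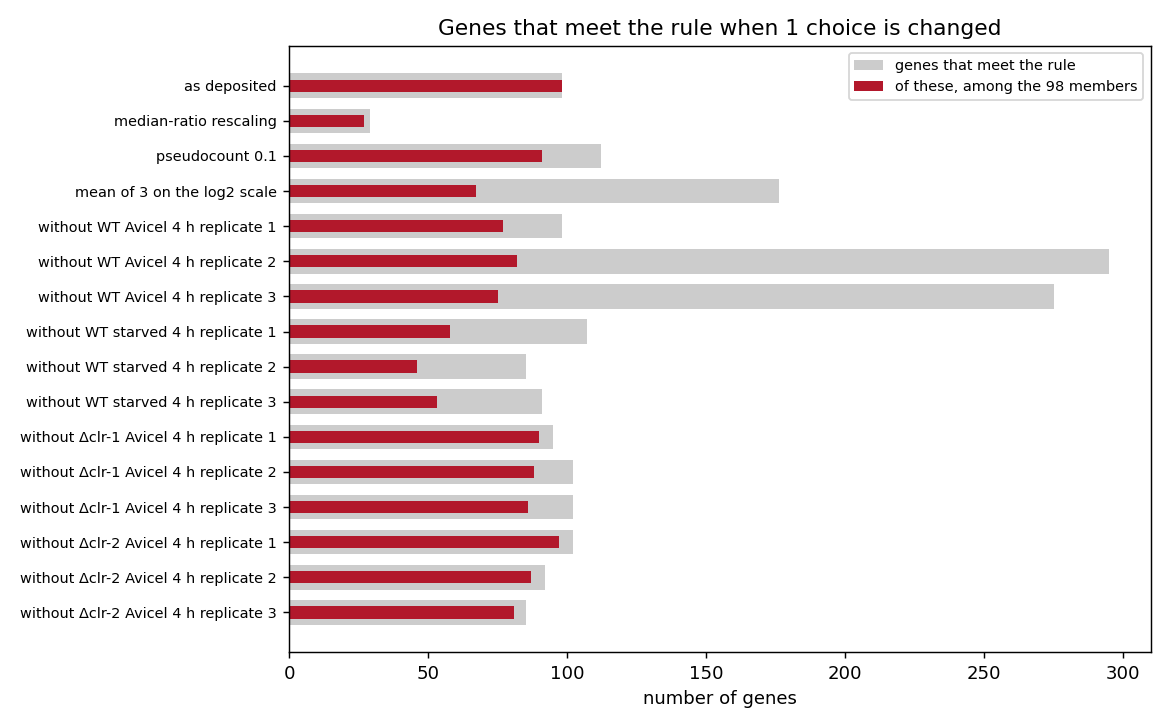
Number of genes that meet the rule (horizontal axis, genes) when 1 choice is changed, with grey bars for all genes found and red bars for those among the 98 members. The grey bar reaches 295 without wild type on Avicel replicate 2 and falls to 29 after median-ratio rescaling.

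At the limit on wild type, the members just inside were NCU01385 at -1.205, NCU05639 at -1.21 and NCU11195 at -1.21, and the genes just outside were NCU09196, ts and NCU06745, each at -1.19. At the limit on Δclr-1 the closest members were acu-6, NCU08712 and NCU01127, each at -0.49, with NCU08925 at -0.51, NCU01112 at -0.53 and NCU16591 at -0.54 outside. At the limit on Δclr-2 the closest members were NCU05653 at -0.50, NCU06566 at -0.49 and NCU09115 at -0.49, with NCU09194 at -0.52, NCU11260 at -0.52 and NCU01291 at -0.53 outside. All these values are differences of group medians of log2(FPKM + 1).

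In starved wild type at 4 h the members were well expressed. Their median of mean FPKM was 50.3, against 26.9 for the 7075 genes at or above 5 FPKM, and the median gene lengths were 2062 bp for members and 2126 bp for all genes. The 10 highest means were those of NCU01835 (920.7 FPKM), NCU07311 (816), egt-1 (736), acu-6 (729), NCU04249 (674), NCU02932 (606), NCU06265 (494), NCU07068 (479), ssp-1 (463) and NCU02579 (447). A symbol in the reference annotation is carried by 14 members, and no role is given here for the other members, which carry locus numbers only.

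The choice fixed the pattern at 4 h, which is given here for its size. The members made up 2.49, 2.12 and 2.07% of summed FPKM in Δclr-1 on Avicel and 1.87, 2.22 and 2.14% in Δclr-2 on Avicel, against 1.45, 0.893 and 0.695% in wild type on Avicel and 2.17, 2.55 and 1.98% in starved wild type. Between wild type on Avicel and starved wild type the median member difference was -1.39 on the log2 scale, against -0.39 for all genes. In 65 members every Avicel library of wild type lay below every starved one, as in 39.1% of all genes tested. By the limits used for every call below (a log2 fold change of 1 or more in size whose adjusted p is under 0.05), 7.47% of all genes tested were lower in this contrast and 3.05% higher. Without Avicel replicate 1, a check added after seeing the data, the median was -1.30 and 78 members did not overlap (46.7% of all genes), and without starved replicate 2 it was -1.39 with 70 (51.7% of all genes). The median member was 1.34 higher in Δclr-1 than in wild type on Avicel (all genes 0.33, with 5.83% of them called higher, 2.48% lower and 8.31% either way) and 1.29 higher in Δclr-2 (all genes 0.37, with 4.23% called higher, 2.21% lower and 6.45% either way). In 80 members every wild type Avicel library lay below all 6 libraries of the deletion strains, as in 36.5% of all genes.

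**Figure D2:**
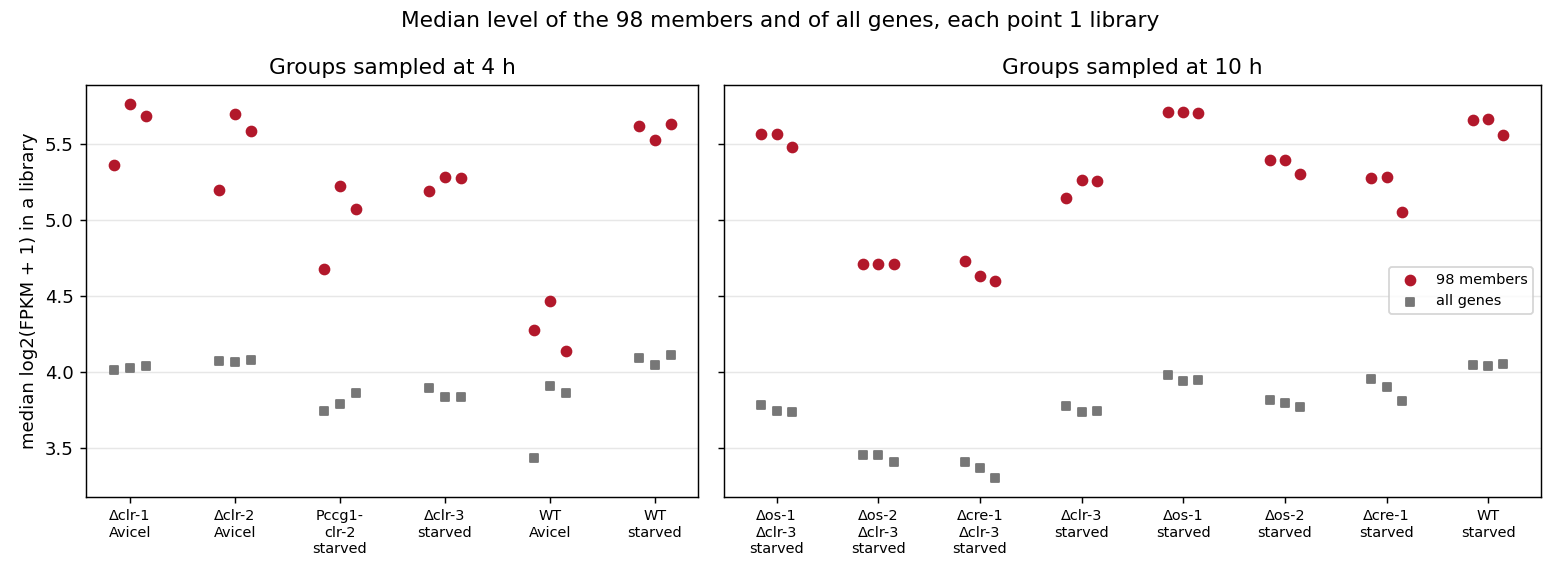
Median log2(FPKM + 1) per library (vertical axis) of the 98 members in red circles and of all genes in grey squares, by group at 4 h on the left and at 10 h on the right. The members sit lowest at 4 h in wild type on Avicel, which the rule chose, and lowest at 10 h in Δos-2Δclr-3 and Δcre-1Δclr-3, where the median of all genes is also lowest.

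Among the members, 2 genes belong to the glyoxylate cycle and gluconeogenesis, and both rose in several starved mutants at 10 h. Isocitrate lyase, the entry enzyme of the glyoxylate cycle, is encoded by acu-3 (NCU04230, V:5289251 to 5292173, build NC12), which at 4 h stood at 157, 199 and 148 FPKM in Δclr-1 and 69.7, 141 and 148 FPKM in Δclr-2 on Avicel, against 25.1, 26.9 and 17.1 FPKM in wild type on Avicel and 255, 115 and 112 FPKM in starved wild type. All 6 libraries of the deletion strains lay above all wild type Avicel libraries. At 10 h acu-3 was far lower in starved wild type, at 15.4, 14.2 and 14.1 FPKM, and this is a description across times. It rose in starved Δos-2 to 71.1, 67.5 and 89.8 FPKM, a log2 fold change of 2.30 ± 0.23, adjusted p = 1.81e-08 by limma. In Δcre-1 it was at 53.8, 67.8 and 34.4 FPKM (1.72 ± 0.23, adjusted p = 1.58e-06). In both cases every mutant library lay above every wild type library. In Δclr-3 it was at 11.7, 13.7 and 12.1 FPKM and in Δos-1 at 15.9, 19.3 and 21.7 FPKM, and neither change passed (-0.21 ± 0.23, adjusted p = 0.419 in Δclr-3; 0.35 ± 0.23, adjusted p = 0.225 in Δos-1).

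The other gluconeogenic member, acu-6 (NCU09873, VI:1824832 to 1828327), encodes phosphoenolpyruvate carboxykinase and was very uneven between replicates at 4 h. It stood at 931, 97.9 and 128 FPKM in Δclr-1 and 146, 335 and 513 FPKM in Δclr-2 on Avicel, against 1035, 76.2 and 10.1 FPKM in wild type on Avicel and 181, 1915 and 91.9 FPKM in starved wild type. The groups overlap widely, and acu-6 meets the rule only through medians of such values: it met it in 8 of the 15 settings. At 10 h its replicates were closer than in these 4 groups, with the widest ratio of highest to lowest in Δcre-1, and acu-6 rose in every mutant tested against the same 3 wild type libraries at 17.3, 19.0 and 24.2 FPKM. In single mutants it was at 74.1, 60.5 and 76.1 FPKM in Δclr-3 (1.76 ± 0.27, adjusted p = 9.25e-06), 50.9, 62.3 and 84.5 FPKM in Δos-1 (1.64 ± 0.27, adjusted p = 6.89e-05), 203, 216 and 329 FPKM in Δos-2 (3.54 ± 0.27, adjusted p = 4.82e-10) and 84.2, 178 and 111 FPKM in Δcre-1 (2.51 ± 0.27, adjusted p = 1.16e-07). No mutant library overlapped wild type. In double mutants it was at 254, 516 and 331 FPKM in Δos-1Δclr-3 (4.07 ± 0.27, adjusted p = 1.69e-10), 564, 498 and 891 FPKM in Δos-2Δclr-3 (4.91 ± 0.27, adjusted p = 8.63e-13) and 1562, 1701 and 1805 FPKM in Δcre-1Δclr-3 (6.33 ± 0.27, adjusted p = 1.76e-14). The Δcre-1Δclr-3 libraries held about as much acu-6 as the highest starved wild type library at 4 h.

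Of the 7 measured genes of the glyoxylate cycle and gluconeogenesis list, acu-3 and acu-6 are the 2 members. At 10 h, 2 of 7 rose and none fell in Δclr-3, 1 rose in Δos-1, 3 in Δos-2 and 4 in Δcre-1 and in each double mutant, with none falling. The list medians were 0.05 in Δclr-3, 0.36 in Δos-1, 0.97 in Δos-2, 1.01 in Δcre-1, 1.10 in Δos-1Δclr-3, 1.05 in Δos-2Δclr-3 and 1.11 in Δcre-1Δclr-3, while the medians of all genes lay between -0.64 and -0.09. Malate synthase, the partner enzyme of isocitrate lyase in the glyoxylate cycle and encoded by acu-9, rose by 1.84 ± 0.20 in Δcre-1 and 1.497 ± 0.20 in Δos-2. Acetyl-CoA synthetase, which activates acetate, is encoded by acu-5. That gene rose by 1.60 ± 0.087 in Δclr-3, 2.31 ± 0.087 in Δos-2Δclr-3 and 1.61 ± 0.087 in Δcre-1Δclr-3. In Δcre-1Δclr-3, acu-8 (-0.43 ± 0.079) and acu-15 (-0.38 ± 0.073) lay below wild type, under the limit of 1 in size. The fructose-bisphosphatase gene fbp-1 stood at 0.93 ± 0.16 in Δcre-1 and 0.97 ± 0.16 in Δos-2, under the limit of 1. Since the list shares acu-3 and acu-6 with the members, its count is not independent of theirs. The shares of all genes called in each mutant stand below, beside the member counts.

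**Figure D3:**
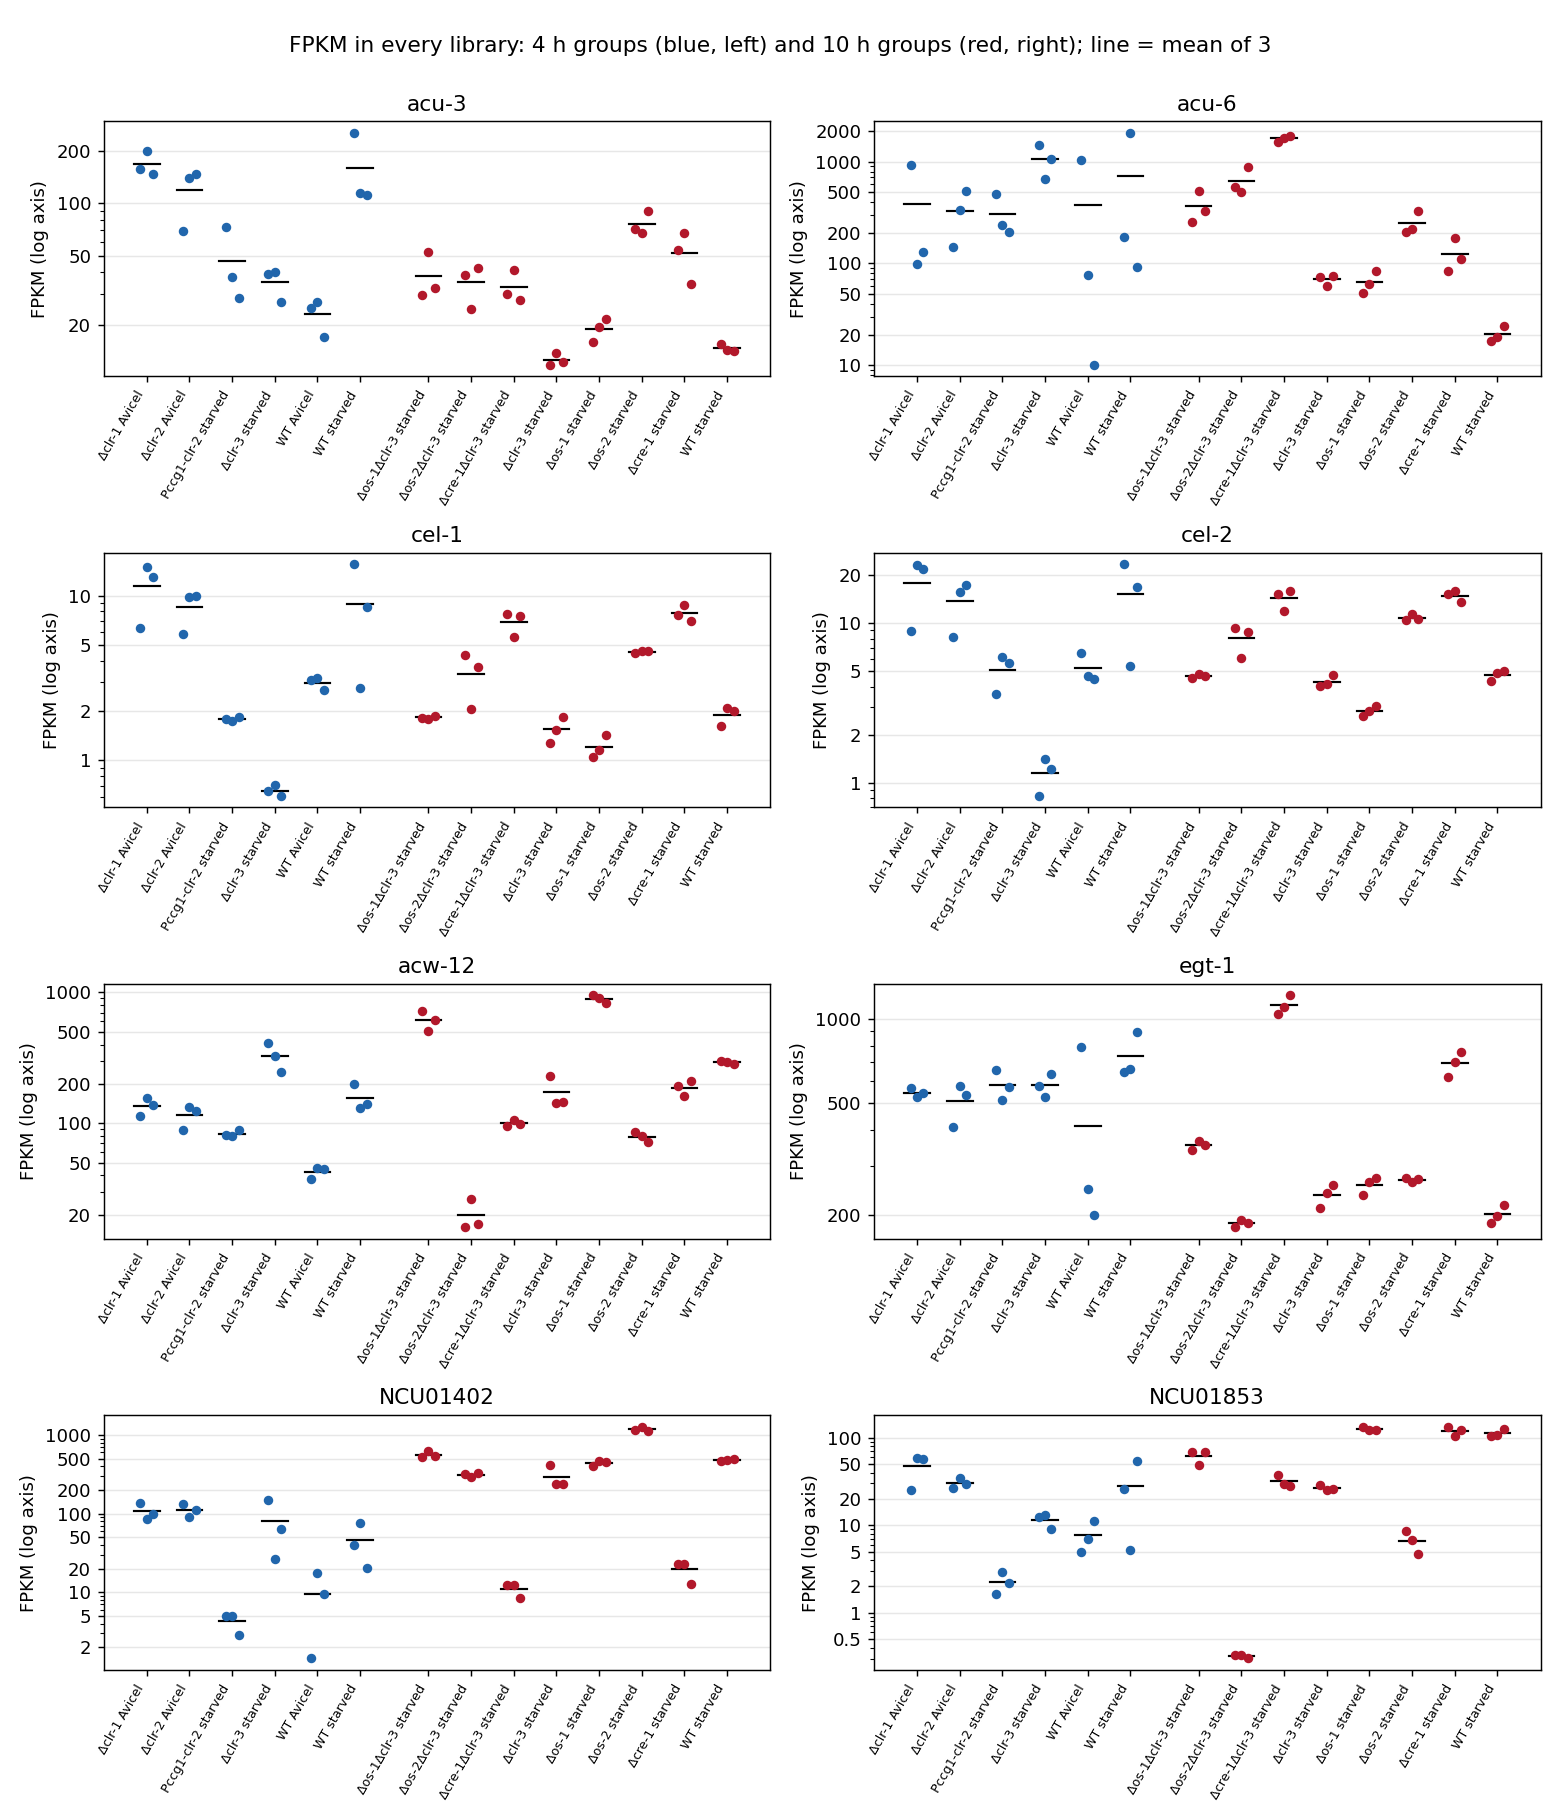
FPKM per library (vertical axis, log scale) of acu-3, acu-6, cel-1, cel-2, acw-12, egt-1, NCU01402 and NCU01853, with 4 h groups in blue at the left and 10 h groups in red at the right and a line at each mean of 3. The acu-6 replicates scatter more in the Avicel and starved wild type groups at 4 h than at 10 h, where wild type is lowest, and NCU01853 is lowest in Δos-2Δclr-3.

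Fatty acid synthase, whose subunits are encoded by the neighbouring genes cel-1 (NCU07308, IV:4422480 to 4429129) and cel-2 (NCU07307, IV:4431604 to 4439201), moved as a pair. At 4 h cel-2 was at 8.86, 23.1 and 21.7 FPKM in Δclr-1 and 8.24, 15.8 and 17.4 FPKM in Δclr-2 on Avicel, against 6.51, 4.65 and 4.48 FPKM in wild type on Avicel and 23.4, 5.38 and 16.8 FPKM in starved wild type. Starved wild type replicate 2 lay within the range of the Avicel libraries, so the wild type groups overlap. At 10 h both genes rose in Δcre-1: cel-1 to 7.64, 8.75 and 7.02 FPKM, against 1.62, 2.06 and 1.98 FPKM in wild type (1.61 ± 0.15, adjusted p = 1.33e-08), and cel-2 to 15.3, 15.9 and 13.6 FPKM, against 4.37, 4.87 and 4.99 FPKM (1.47 ± 0.11, adjusted p = 1.24e-09). They rose in Δcre-1Δclr-3 as well (cel-1 1.45 ± 0.15, cel-2 1.41 ± 0.11). In Δos-2, cel-2 rose to 10.4, 11.4 and 10.5 FPKM (1.04 ± 0.11, adjusted p = 8.32e-08) and cel-1 stood at 0.95 ± 0.15, just under the limit of 1 and above it after rescaling (1.08). Neither passed in Δclr-3, Δos-1, Δos-1Δclr-3 or Δos-2Δclr-3, though both reached the limit in Δos-2Δclr-3 after rescaling (cel-1 1.003, cel-2 1.18). Over the 24 libraries at 10 h the 2 genes correlated at 0.988, a description of libraries that share groups.

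Respiration and oxidative defence were represented by aod-2, cat-1 and egt-1. The aod-2 gene (NCU03352, II:1004272 to 1007496) encodes a transcription factor needed for alternative oxidase, the enzyme that bypasses the later respiratory chain. At 10 h it was at 8.997, 8.06 and 8.68 FPKM in Δcre-1Δclr-3, against 31.7, 31.4 and 32.2 FPKM in wild type (-1.78 ± 0.067, adjusted p = 3.88e-15), with no overlap. It fell in Δos-2Δclr-3 as well (-1.12 ± 0.067), but after rescaling the difference was -0.51 and no longer a call. The catalase gene cat-1 (NCU08791, III:5111604 to 5114534) was at 73.4, 60.4 and 81.8 FPKM in Δos-2Δclr-3, against 185, 186 and 166 FPKM in wild type (-1.31 ± 0.092, adjusted p = 2.93e-11; -0.67 after rescaling, below the limit). In the remaining mutants cat-1 did not pass, with log2 fold changes between -0.58 and 0.43. Of the 6 measured oxidative stress genes, of which cat-1 is the 1 member, 3 fell in Δos-2Δclr-3: cat-1, the catalase gene cat-3 (-3.66 ± 0.20) and the superoxide dismutase gene sod-1 (-1.27 ± 0.066), where 20% of all genes fell. After rescaling cat-3 was the 1 that fell (-3.18), and sod-1 stood at -0.63. In Δclr-3 and in Δos-2, cat-3 was the 1 that fell (-2.11 ± 0.20 and -1.41 ± 0.20), and in the other 4 mutants none passed.

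The egt-1 gene (NCU04343, IV:3707018 to 3711237) encodes an enzyme that makes ergothioneine, a sulphur-containing antioxidant. It rose in Δcre-1 to 621, 701 and 762 FPKM and in Δcre-1Δclr-3 to 1039, 1101 and 1208 FPKM, against 188, 199 and 217 FPKM in wild type at 10 h (1.78 ± 0.079, adjusted p = 5.44e-13 in Δcre-1; 2.47 ± 0.079, adjusted p = 6.86e-16 in Δcre-1Δclr-3). Every library of both mutants lay above every wild type library. In the other 5 mutants it did not pass, with values from -0.10 in Δos-2Δclr-3 to 0.81 in Δos-1Δclr-3, the last of which passed after rescaling (1.13). At 4 h egt-1 was at 793, 247 and 201 FPKM in wild type on Avicel, against 647, 661 and 899 FPKM in starved wild type, so Avicel replicate 1 lay inside the starved range. A second reference gene overlaps egt-1, and the strandedness of the libraries is not given in the sources used here. Reads in the stretch that the 2 genes share thus cannot be told apart.

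Arginase, which breaks arginine into ornithine and urea and is encoded by aga-1 (NCU02333, VII:2873838 to 2876240), fell in Δcre-1Δclr-3. It was at 34.3, 28.7 and 25.8 FPKM there, against 125, 114 and 127 FPKM in wild type (-2.01 ± 0.10, adjusted p = 1.52e-13), with no overlap. In Δos-2Δclr-3 it was at 44.7, 42.8 and 41.3 FPKM (-1.48 ± 0.10, adjusted p = 2.35e-11) and in Δos-2 at 62.8, 59.0 and 56.2 FPKM (-1.03 ± 0.10, adjusted p = 2.15e-08). These calls ended after rescaling (-0.85 in Δos-2Δclr-3 and -0.79 in Δos-2), while that in Δcre-1Δclr-3 stayed (-1.31). In Δos-1 aga-1 stood at -0.06 ± 0.10, with overlapping libraries.

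At the cell surface, acw-12 (NCU08171, VII:3621182 to 3623068), which encodes an anchored cell wall protein, separated Δos-1 from Δos-2. At 10 h it was at 948, 913 and 824 FPKM in Δos-1, 85.1, 79.3 and 72.0 FPKM in Δos-2 and 16.0, 26.3 and 17.1 FPKM in Δos-2Δclr-3, against 299.9, 292 and 283 FPKM in wild type. It thus rose in Δos-1 (1.61 ± 0.17, adjusted p = 2.5e-07) and fell in Δos-2 (-1.88 ± 0.17, adjusted p = 4.11e-09), and it fell in Δos-2Δclr-3 (-3.85 ± 0.17, adjusted p = 1.93e-14). In Δos-1Δclr-3 it rose (1.05 ± 0.17). In Δcre-1Δclr-3 it fell (-1.53 ± 0.17), a call that ended after rescaling (-0.82). Another reference gene overlaps acw-12, with the same limit as for egt-1. The gene gpr-6 (NCU09195, I:5788518 to 5791279), which encodes a G protein-coupled receptor, was at 26.8, 23.3 and 24.8 FPKM in Δcre-1Δclr-3, against 51.9, 55.5 and 60.9 FPKM in wild type (-1.14 ± 0.057, adjusted p = 1.07e-13; -0.44 after rescaling, below the limit), and did not pass in the other 6 mutants.

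The last 4 members with a symbol, for which no role is given here, differed among themselves. The tzn-2 gene (NCU11414) rose in Δcre-1 to 189, 203 and 177 FPKM, against 59.997, 58.8 and 60.8 FPKM in wild type (1.64 ± 0.10, adjusted p = 6.15e-11). It also rose in Δos-2 (1.06 ± 0.10), Δos-2Δclr-3 (1.52 ± 0.10) and Δcre-1Δclr-3 (1.94 ± 0.10), and after rescaling also in Δos-1Δclr-3 (1.24). The dcc-1 gene (NCU00939) fell in Δcre-1Δclr-3 to 17.7, 15.3 and 16.0 FPKM, against 52.7, 58.1 and 60.3 FPKM in wild type (-1.74 ± 0.07, adjusted p = 6.65e-15), and passed in no other mutant at 10 h. For ssp-1 (NCU08554) and acd-2 (NCU08924) no comparison with wild type at 10 h passed: ssp-1 ran from -0.58 to 0.16 and acd-2 from -0.76 to 0.15 over the 7 mutants.

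The comparison of Pccg1-clr-2 with Δclr-3 at 4 h uses no library that chose the members. Both are starved strains with cellulase genes on. The cellulase list holds 8 genes, not all of them cellulases: cbh-1, gh6-2, gh5-1, gh61-4, gh10-1, cdh-1 and the cellodextrin transporter genes cdt-1 and cdt-2. They made up 4.42, 7.96 and 6.98% of summed FPKM in Pccg1-clr-2 and 2.29, 3.94 and 4.04% in Δclr-3. Of 98 members, 21 were lower and 9 higher in Pccg1-clr-2, against 7.97% of all genes tested lower, 5.31% higher and 13.3% either way. The median member difference was -0.42, against -0.06 for all genes. The widest gap was that of NCU07200, at 113, 62.1 and 65.9 FPKM in Pccg1-clr-2 and 1005, 1663 and 1229 FPKM in Δclr-3 (-4.02 ± 0.71, adjusted p = 0.000572). NCU09992 was at 25.0, 29.1 and 31.2 FPKM in Pccg1-clr-2 and 374, 425 and 499 FPKM in Δclr-3 (-3.88 ± 0.66, adjusted p = 0.000392). For both genes the strains were far apart with no overlap. The next were NCU01402 (-3.65 ± 0.66, adjusted p = 0.000656), NCU09856 (-3.29 ± 0.56, adjusted p = 0.000394), NCU09767 (-3.27 ± 0.43, adjusted p = 4.45e-05) and NCU04430 (-3.18 ± 0.66, adjusted p = 0.00202).

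Among members with a symbol, tzn-2 was at 46.9, 49.6 and 48.4 FPKM in Pccg1-clr-2 and 332, 226 and 305 FPKM in Δclr-3 (-2.53 ± 0.56, adjusted p = 0.00307), and acw-12 at 81.1, 80.4 and 88.1 FPKM and 413, 326 and 246 FPKM in the same order (-1.94 ± 0.21, adjusted p = 7.59e-06). In both the Pccg1-clr-2 libraries lay below all Δclr-3 libraries. The aod-2 gene was lower by a margin that only just passed (-1.001 ± 0.17, adjusted p = 0.000485; -0.92 after rescaling). In the other direction, cel-2 was at 3.59, 6.14 and 5.59 FPKM in Pccg1-clr-2 and 0.827, 1.41 and 1.21 FPKM in Δclr-3 (1.49 ± 0.43, adjusted p = 0.0156). NCU08425 was at 16.7, 25.8 and 29.4 FPKM in Pccg1-clr-2 and 2.18, 4.64 and 2.54 FPKM in Δclr-3 (2.61 ± 0.57, adjusted p = 0.00273). Neither acu-3 (0.29 ± 0.38, adjusted p = 0.585) nor acu-6 (-1.84 ± 1.34, adjusted p = 0.313) passed. Without the library farthest from the others in each 4 h group, 29 members were lower and 10 higher.

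Starved wild type at 4 h helped to choose the members, which had to be high in its libraries. The choice therefore favours lower values in any group set against it, and the counts that follow describe these libraries with nothing read from them. By the same limits 31 members lay lower and none higher in Pccg1-clr-2, with a median of -0.74 (all genes -0.29). Of all genes tested, 7.73% were lower, 2.76% higher and 10.5% either way. In Δclr-3 at 4 h, 21 members lay lower and 11 higher, with a median of -0.56 (all genes -0.19), beside 7.45% of all genes lower, 3.16% higher and 10.6% either way. The 2 comparisons share the wild type libraries, so their values are set side by side only. After rescaling the calls were 13 lower and 0 higher in Pccg1-clr-2 and 18 lower and 15 higher in Δclr-3. For this and the other changed settings below, the share of all genes called is not given. The call counts also moved with single libraries: in Pccg1-clr-2 to 20 without its replicate 1 and 19 without starved wild type replicate 3, and in Δclr-3 to 19 without its replicate 3 and 20 without starved wild type replicate 3. Without the farthest library of each group Δclr-3 had 31 lower and 19 higher.

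The same holds for single members, whose differences from starved wild type at 4 h are given with their SE and no test. For acu-3 the libraries were at 73.4, 37.5 and 28.4 FPKM in Pccg1-clr-2 (-1.77 ± 0.38) and 39.0, 40.1 and 27.0 FPKM in Δclr-3 (-2.06 ± 0.38). For cel-1 they were at 1.77, 1.72 and 1.82 FPKM in Pccg1-clr-2 (-1.59 ± 0.39) and 0.647, 0.704 and 0.606 FPKM in Δclr-3 (-2.34 ± 0.39), against 15.5, 2.73 and 8.53 FPKM in starved wild type. For cel-2 the log2 differences were -1.23 ± 0.43 in Pccg1-clr-2 and -2.72 ± 0.43 in Δclr-3, and for aod-2 they were -1.68 ± 0.17 in Pccg1-clr-2 and -0.68 ± 0.17 in Δclr-3. For acw-12 they were -0.88 ± 0.21 in Pccg1-clr-2 and 1.05 ± 0.21 in Δclr-3. For tzn-2 they were -0.69 ± 0.56 in Pccg1-clr-2 and 1.85 ± 0.56 in Δclr-3, and for ssp-1 -0.80 ± 0.26 in Pccg1-clr-2 and -1.58 ± 0.26 in Δclr-3.

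At 10 h no library had been used to choose the members, and 95 of the 98 were tested. The other members, NCU01880, NCU06808 and NCU16349, averaged 0.0768, 0.782 and 0.324 FPKM over the 24 libraries, below the mean of 1 FPKM that a test required. NCU16349 was at 0.532, 0.487 and 0.588 FPKM in starved wild type at 10 h, and at 42.4, 21.6 and 93.4 FPKM in starved wild type at 4 h. NCU01880, which has 1 other gene between itself and NCU16349 on chromosome I, was at 0.131, 0.0618 and 0.175 FPKM at 10 h and 9.09, 4.25 and 23.0 FPKM at 4 h. These transcripts were near 0 at the later time in every strain, with a highest value of 0.764 FPKM for NCU16349. NCU04844 was also low at 10 h, at 6.43, 6.34 and 6.64 FPKM in wild type, against 96.8, 52.0 and 86.5 FPKM at 4 h.

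In starved Δclr-3 at 10 h, 2 rose and 6 fell of 95 (all genes: 2.93% higher, 2.62% lower, 5.55% either way), with a member median of -0.33 and -0.29 for all genes. NCU01853 was at 29.2, 25.2 and 25.9 FPKM in Δclr-3, against 105, 108 and 125 FPKM in wild type (-2.03 ± 0.15, adjusted p = 7.49e-10), with no overlap. Besides acu-6, the leading calls were NCU09575 at 4.43, 5.32 and 5.503 FPKM in Δclr-3, against 15.2, 15.04 and 12.3 FPKM in wild type (-1.32 ± 0.18, adjusted p = 1.75e-06), and NCU02929 (-1.24 ± 0.14, adjusted p = 1.24e-07). NCU09575 overlaps another reference gene, and its call ended with a pseudocount of 5 (-0.93); that of NCU02929 ended after rescaling (-0.92). After rescaling 3 members were higher and 2 lower, with the share of all genes called in that setting not given.

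In Δos-1, 6 rose and 5 fell (all genes: 1.58% higher, 1.09% lower, 2.67% either way), and the member median was 0.04, against -0.09 for all genes. NCU07200 was at 356, 480.1 and 422 FPKM in Δos-1, against 168, 154 and 125 FPKM in wild type (1.49 ± 0.11, adjusted p = 4.32e-09). NCU08364 was at 19.7, 21.6 and 26.4 FPKM in Δos-1, against 62.5, 59.2 and 62.7 FPKM in wild type (-1.42 ± 0.098, adjusted p = 8.45e-10). With acu-6 and acw-12 these were the 4 members of largest change in Δos-1, and none overlapped wild type. The conidia and aerial hypha markers summed to 13096 to 20010 FPKM in Δos-1, 19797 to 21509 in Δos-2, 9696 to 15958 in Δcre-1 and 4676 to 5107 in Δclr-3, against 5768 to 8829 in wild type. Of the 19 listed conidiation and hydrophobin genes, none of them members, 4 rose and 2 fell in Δos-1, 5 rose and 6 fell in Δos-2, 4 rose and 3 fell in Δcre-1, and none rose and 2 fell in Δclr-3, which after rescaling was 3 rising and 1 falling. Their part in the members' values was not tested.

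In Δos-2, 13 rose and 12 fell (all genes: 4.48% higher, 6.26% lower, 10.7% either way), with a member median of 0.00 and -0.24 for all genes. NCU09856 was at 0.85, 0.513 and 0.259 FPKM in Δos-2, against 26.6, 24.9 and 18.3 FPKM in wild type (-3.98 ± 0.18, adjusted p = 3.39e-13). NCU01853 was at 8.49, 6.78 and 4.73 FPKM in Δos-2, against 105, 108 and 125 FPKM in wild type (-3.92 ± 0.15, adjusted p = 7.08e-14). NCU06555 was at 2.69, 2.33 and 2.89 FPKM in Δos-2, against 43.0, 37.0 and 17.6 FPKM in wild type (-3.11 ± 0.30, adjusted p = 1e-08). All 3 were lower in every Δos-2 library than in every wild type library, while acu-6 was the leading member that rose. Rescaling brought the median of all genes to -0.02, and 17 members were then higher and 10 lower. The shares of all genes above are those before rescaling, so these last counts cannot be set against them.

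In Δcre-1, 10 rose and 9 fell (all genes: 2.85% higher, 3.12% lower, 5.97% either way), and the member median was -0.20, against -0.16 for all genes. NCU01402 fell to 23.2, 22.9 and 12.8 FPKM in Δcre-1, against 469, 480.1 and 499.9 FPKM in wild type (-4.60 ± 0.19, adjusted p = 2.74e-13). The groups were far apart. NCU07200 rose to 626, 684 and 720.4 FPKM (2.18 ± 0.11, adjusted p = 7.66e-12) and NCU08425 to 18.8, 18.5 and 17.3 FPKM, against 4.01, 4.50 and 3.81 FPKM in wild type (1.91 ± 0.075, adjusted p = 1.18e-13). With acu-3, acu-6, cel-1, cel-2, egt-1 and tzn-2, the members of higher level in Δcre-1 include 6 of the 14 with a symbol.

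In Δos-2Δclr-3 and Δcre-1Δclr-3 most calls were falls, among members as among all genes. In Δos-2Δclr-3, 41 fell and 7 rose of 95 (all genes: 20% lower, 5.03% higher, 25% either way), with a member median of -0.91 and -0.60 for all genes. In Δcre-1Δclr-3, 36 fell and 11 rose (all genes: 27.7% lower, 5.05% higher, 32.7% either way), with -0.68 and -0.64. In Δos-1Δclr-3, 8 fell and 8 rose (all genes: 4.29% lower, 4.07% higher, 8.36% either way), with -0.15 and -0.29. Rescaling moved the median of all genes to -0.02 in Δos-2Δclr-3, 0.02 in Δcre-1Δclr-3 and -0.00098 in Δos-1Δclr-3. The calls were then 14 lower and 10 higher in Δos-2Δclr-3, 13 lower and 17 higher in Δcre-1Δclr-3, and 2 lower and 15 higher in Δos-1Δclr-3. The member medians after rescaling were -0.28 in Δos-2Δclr-3, -0.05 in Δcre-1Δclr-3 and 0.13 in Δos-1Δclr-3. Among members the excess of falls in Δcre-1Δclr-3 turned to an excess of rises with the scaling, whereas no single call changed its sign. The shares of all genes called after rescaling are not given, so whether all genes turned alike cannot be told.

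**Figure D4:**
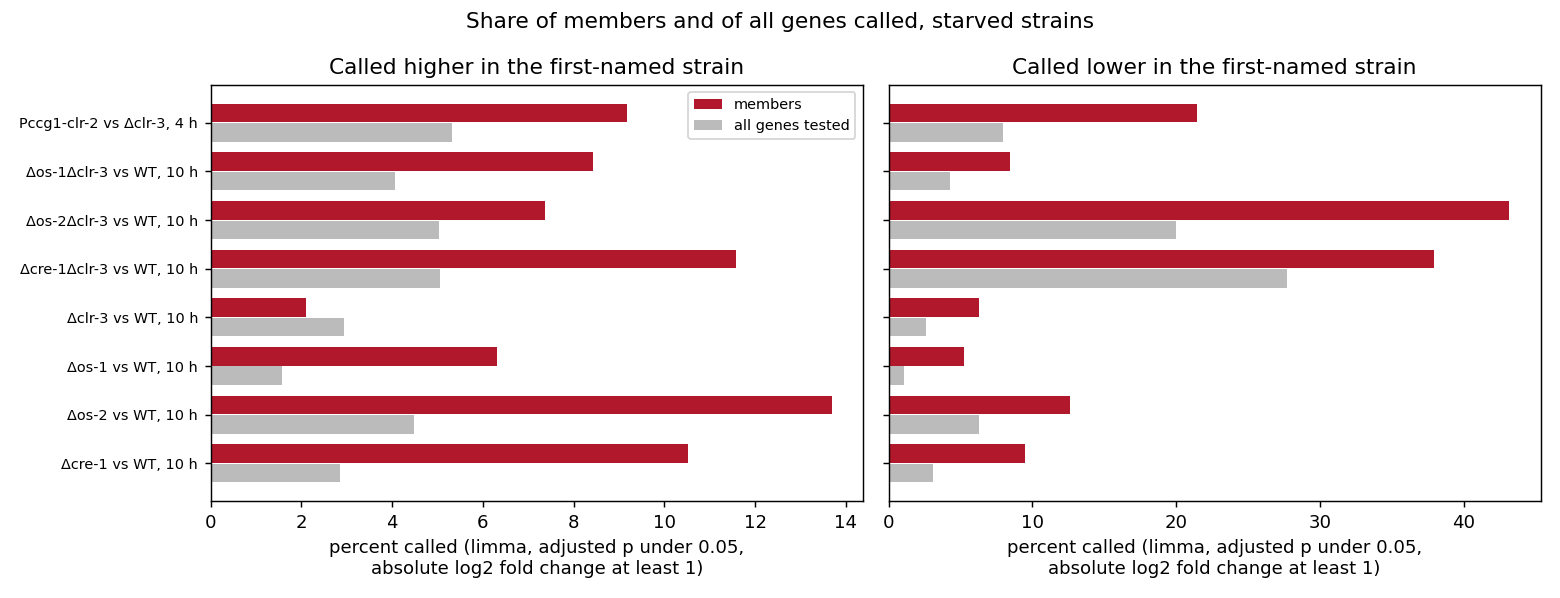
Percent of members (red) and of all genes tested (grey) called higher, left panel, or lower, right panel, in the first-named strain of each comparison of starved strains, with the 2 panels on different scales. The longest red bar is that of Δos-2Δclr-3 in the right panel, 41 of 95 members, beside 20% of all genes.

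The 8 genes of the cellulase list made up 10.8, 12.3 and 9.75% of summed FPKM in Δos-2Δclr-3 and 0.757, 0.729 and 0.652% in Δcre-1Δclr-3. They made up 0.178, 0.194 and 0.194% in Δos-1Δclr-3, against 0.0358, 0.0362 and 0.0454% in wild type at 10 h. The members made up 2.10, 1.97 and 2.24% in Δos-2Δclr-3 and 2.36, 2.42 and 2.38% in Δcre-1Δclr-3, against 2.16, 2.199 and 2.22% in wild type, so the summed share was not lower in Δcre-1Δclr-3 although most calls there were falls. Some abundant members were higher. NCU04249 was at 3414, 3254 and 3518 FPKM in Δos-2Δclr-3, against 1134, 1143 and 1108 FPKM in wild type (1.59 ± 0.12, adjusted p = 1.08e-10). NCU01835 was at 2703, 2761 and 2795 FPKM in Δcre-1Δclr-3, against 992, 984 and 1009 FPKM in wild type (1.47 ± 0.083, adjusted p = 6.28e-13). The conidia and aerial hypha markers summed to 16885 to 20823 FPKM in Δos-1Δclr-3 and 7719 to 10756 in Δos-2Δclr-3. The sums were 8085 to 10750 in Δcre-1Δclr-3 and 5768 to 8829 in wild type. Single markers went opposite ways in Δcre-1Δclr-3: con-8 rose (1.36 ± 0.074), while con-10 (-2.49 ± 0.26) and fl (-1.93 ± 0.15) fell. There eas, con-6 and con-13 passed in neither direction. The part of these markers in the members' values was not tested.

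The largest fall of any member was that of NCU01853 in Δos-2Δclr-3, to 0.329, 0.332 and 0.301 FPKM, against 105, 108 and 125 FPKM in wild type (-6.43 ± 0.15, adjusted p = 2e-18). Besides acu-6 and acw-12, NCU09856 led there, at 2.95, 4.71 and 2.18 FPKM (-2.53 ± 0.18, adjusted p = 2.45e-11). In Δcre-1Δclr-3, NCU01402 was at 12.3, 12.3 and 8.55 FPKM (-5.34 ± 0.19, adjusted p = 2.15e-15), NCU06555 at 3.14, 5.27 and 2.29 FPKM (-2.84 ± 0.30, adjusted p = 1.14e-08) and NCU02929 at 21.5, 18.9 and 17.2 FPKM, against 144, 147 and 135 FPKM in wild type (-2.83 ± 0.14, adjusted p = 6.43e-14). In Δos-1Δclr-3, NCU07200 rose to 529, 554 and 496 FPKM (1.82 ± 0.11, adjusted p = 8.82e-11), NCU04430 rose to 159, 194 and 177 FPKM, against 67.8, 72.7 and 46.1 FPKM in wild type (1.51 ± 0.17, adjusted p = 1.17e-07), and NCU02929 fell to 49.0, 49.8 and 42.4 FPKM (-1.57 ± 0.14, adjusted p = 3.77e-09). In each of these the 3 mutant libraries lay on 1 side of all wild type libraries.

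**Figure D5:**
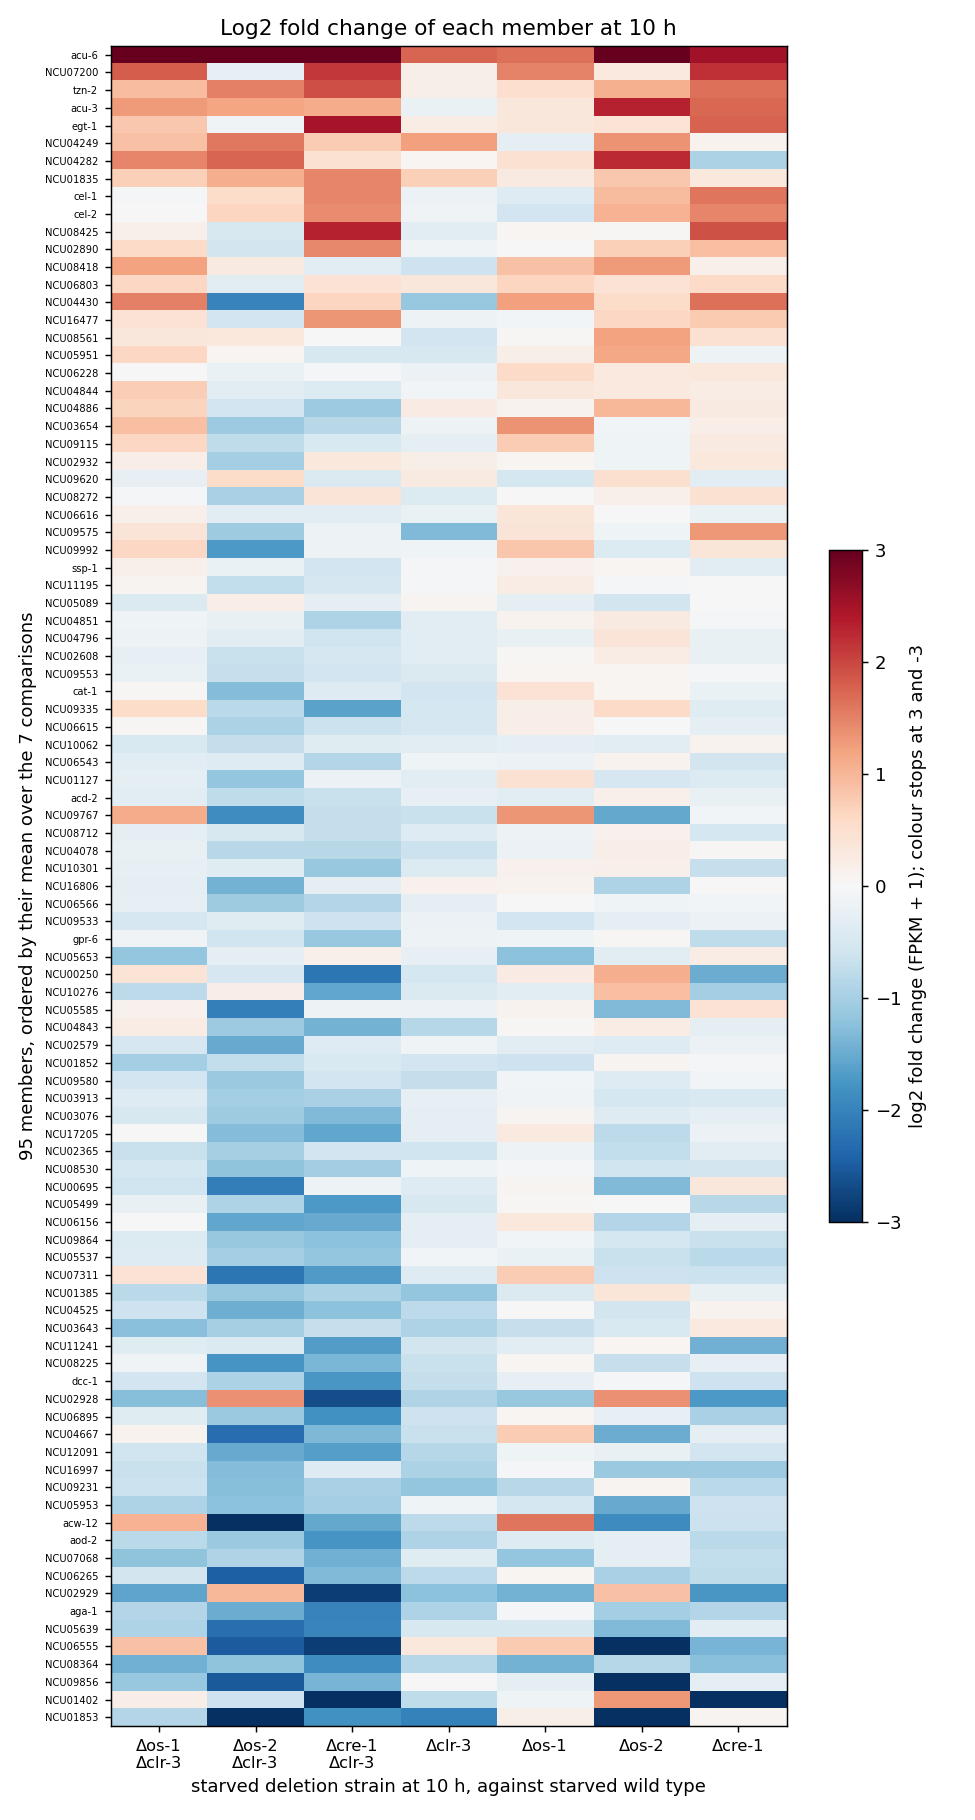
Log2 fold change (colour, red higher and blue lower in the mutant, stopping at 3 and -3) of 95 members at 10 h in 7 starved mutants against the same starved wild type libraries, ordered by the mean of each row. The acu-6 row at the top is red throughout, and the blue of NCU01402 in Δcre-1 and Δcre-1Δclr-3 stands beside red in Δos-2.

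Δos-1 and Δos-2 were also compared directly, a comparison chosen after these data were seen. Of 95 members 17 were higher and 12 lower in Δos-1 (all genes: 5.24% higher, 3.83% lower, 9.07% either way), with a member median of 0.03 and 0.12 for all genes. After rescaling the split was 13 higher and 16 lower, and the share of all genes called in that setting is not given. NCU01853 was at 133, 123 and 123 FPKM in Δos-1 and 8.49, 6.78 and 4.73 FPKM in Δos-2 (4.08 ± 0.15, adjusted p = 6.62e-15). NCU06555 was at 53.5, 60.4 and 47.1 FPKM in Δos-1 and 2.69, 2.33 and 2.89 FPKM in Δos-2 (3.91 ± 0.30, adjusted p = 4.75e-10). NCU09856 (3.72 ± 0.18, adjusted p = 3.67e-13), acw-12 (3.49 ± 0.17, adjusted p = 4.67e-13) and NCU09767 (2.86 ± 0.13, adjusted p = 1.21e-13) were higher in Δos-1 as well. Lower in Δos-1 were the adjacent genes NCU02928 (-2.51 ± 0.13, adjusted p = 1.02e-12) and NCU02929 (-2.28 ± 0.14, adjusted p = 1.21e-11), and the metabolic genes acu-3 (-1.95 ± 0.23, adjusted p = 2.6e-07), acu-6 (-1.90 ± 0.27, adjusted p = 4.16e-06), cel-2 (-1.62 ± 0.11, adjusted p = 1.54e-10) and cel-1 (-1.33 ± 0.15, adjusted p = 1.4e-07). These 4 metabolic genes and the cell wall gene acw-12 thus stood on opposite sides of this comparison.

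Some members without a symbol covered wide ranges at 10 h. NCU01402 was at 521, 624 and 537 FPKM in Δos-1Δclr-3, 317, 295 and 332 FPKM in Δos-2Δclr-3, 12.3, 12.3 and 8.55 FPKM in Δcre-1Δclr-3, 410.0, 238 and 238 FPKM in Δclr-3, 404, 465 and 449 FPKM in Δos-1, 1159, 1274 and 1134 FPKM in Δos-2 and 23.2, 22.9 and 12.8 FPKM in Δcre-1, against 469, 480.1 and 499.9 FPKM in wild type. The strains without CRE-1 were low and Δos-2 was high (1.30 ± 0.19, adjusted p = 3.97e-06), while Δclr-3, Δos-1, Δos-1Δclr-3 and Δos-2Δclr-3 did not pass. NCU01853 was at 68.6, 48.5 and 68.2 FPKM in Δos-1Δclr-3, 37.7, 29.2 and 28.3 FPKM in Δcre-1Δclr-3 and 133, 104 and 121 FPKM in Δcre-1, beside the values above for Δos-2Δclr-3, Δos-2, Δos-1, Δclr-3 and wild type. Its libraries in Δcre-1 and in wild type overlapped (0.077 ± 0.15, adjusted p = 0.665), and it fell in Δcre-1Δclr-3 (-1.81 ± 0.15, adjusted p = 2.8e-10). NCU07200 was at 214, 163 and 173 FPKM in Δos-2 (0.30 ± 0.11, adjusted p = 0.0245), 164, 178 and 159.9 FPKM in Δclr-3 (0.17 ± 0.11, adjusted p = 0.176) and 622, 683 and 652 FPKM in Δcre-1Δclr-3 (2.13 ± 0.11, adjusted p = 3.07e-13).

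Whether the Δclr-3 effect differed between backgrounds was tested as an interaction, also chosen after these data were seen. The effect of the clr-3 deletion in Δos-1 minus that in wild type was called for 7 of 95 members, all positive (all genes: 1.5% positive, 1.61% negative, 3.11% either way), and after rescaling for 4. In Δos-2 minus wild type it was called positive for 2 members and negative for 12 (all genes: 1.95% positive, 2.67% negative, 4.62% either way), and after rescaling for 2 and 8. In Δcre-1 minus wild type it was called positive for 4 and negative for 5 (all genes: 2.63% positive, 4.23% negative, 6.86% either way), and after rescaling for 4 and 2. All these shares of all genes are those before rescaling. Of the members with a symbol, acu-3 was called in Δos-1 (1.14 ± 0.32, adjusted p = 0.0126), acw-12 in Δos-2 (-1.18 ± 0.24, adjusted p = 0.000583) and acu-6 in Δcre-1 (2.06 ± 0.39, adjusted p = 0.000156).

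Some members lie side by side in the genome: 21 members fall in 10 runs with at most 1 other gene between neighbours (build NC12). The share of all genes that would fall in such runs is not given, so the count is not read as clustering. Chromosome VI holds 17 members, 1.72% of its genes, and the other chromosomes between 0.80 and 1.08%. NCU02929 (I:8660308 to 8662673) and NCU02928 (I:8663426 to 8668208) had a Pearson correlation of 0.993 over the 24 libraries at 10 h. NCU02928 was at 198, 198 and 180.4 FPKM in Δos-2 (1.38 ± 0.13, adjusted p = 6.53e-09) and 209.6, 157 and 216 FPKM in Δos-2Δclr-3 (1.38 ± 0.13, adjusted p = 1.9e-09), against 71.0, 76.6 and 72.4 FPKM in wild type, and was higher in every library of both mutants. NCU02929 stood at 0.87 ± 0.14 in Δos-2 and 0.995 ± 0.14 in Δos-2Δclr-3, both just under the limit of 1. In Δcre-1Δclr-3 NCU02928 was at 11.2, 11.4 and 9.96 FPKM (-2.65 ± 0.13, adjusted p = 6.4e-14).

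NCU02890 (I:8790820 to 8791556) and NCU16477 (I:8792030 to 8793290) correlated at 0.997. Both rose in Δcre-1Δclr-3, NCU02890 to 412, 461 and 431 FPKM, against 148, 157 and 172 FPKM in wild type (1.45 ± 0.11, adjusted p = 3.35e-11), and NCU16477 by 1.33 ± 0.10. NCU06156 (VII:1609429 to 1610506) and NCU17205 (VII:1610738 to 1612759) correlated at 0.984, and both fell in Δcre-1Δclr-3 (-1.52 ± 0.086 and -1.55 ± 0.08) and Δos-2Δclr-3 (-1.56 ± 0.086 and -1.30 ± 0.08). All 4 of these calls ended after rescaling, with -0.83 and -0.86 in Δcre-1Δclr-3 and -0.94 and -0.69 in Δos-2Δclr-3. In the run of 3 on chromosome VI, NCU12091 correlated with NCU04843 at 0.890 and NCU04843 with NCU04844 at 0.856. The last 2 genes overlap in part, and reads in the stretch they share cannot be told apart. NCU06615 and NCU06616 correlated at 0.860. Other neighbours did not go together: the correlation was 0.148 for NCU01853 and NCU01852, 0.164 for NCU08530 and NCU10276, and -0.570 for NCU05953 and NCU05951. NCU05951 rose in Δos-2 (1.15 ± 0.14, adjusted p = 3e-07), where NCU05953 fell (-1.5004 ± 0.10, adjusted p = 7.13e-11). These correlations are over libraries of 8 shared groups and carry no test, and values for neighbouring genes in general are not given.

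Across the 8 group means at 10 h, 62 members correlated above 0.5 with the median profile of the members. Of these 28 lay above 0.8, while 15 members lay below 0. That profile comes from these same members, and its lowest values were those of Δos-2Δclr-3 (-0.50) and Δcre-1Δclr-3 (-0.40). The median of all genes was lowest there too. The share of all genes past these limits is not given, so the counts are not read as members moving together. The closest to the profile were NCU12091 (0.98), NCU06566 (0.98) and NCU09553 (0.96), and among members with a symbol aga-1 (0.88) and cat-1 (0.86). Running against it were NCU01835 (-0.87), acu-6 (-0.79), NCU04249 (-0.67), tzn-2 (-0.62), cel-2 (-0.42) and cel-1 (-0.37). The lowest group mean at 10 h lay in Δos-2Δclr-3 for 43 of the 98 members (43.9%, and 31.5% of all genes tested) and in Δcre-1Δclr-3 for 35 (35.7%, and 47.1% of all genes). The highest lay in Δos-2 for 25 (25.5%, and 14.5% of all genes), in Δos-1 for 23 (23.5%, and 14.4%) and in wild type for 20 (20.4%, and 35.3%). After rescaling the lowest lay in Δos-2Δclr-3 for 30 members (30.6%, and 14.0% of all genes) and in Δcre-1Δclr-3 for 20 (20.4%, and 26.1%). The highest then lay in Δos-2 for 26 (26.5%, and 14.5% of all genes) and in Δos-1 for 19 (19.4%, and 12.3%). It lay in Δcre-1Δclr-3 for 18 (18.4%, and 25.2%) and in wild type for only 4 (4.08%, and 11.6%). The places of wild type and Δcre-1Δclr-3 thus depended on the scaling.

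Other listed pathways held no member. None of 13 light, clock and carotenoid genes, 9 nitrogen genes or 22 autophagy and peroxisome genes met the rule. The same held for 2 hexose transport genes and the 8 genes of the cellulase list. Since 98 of 9758 genes met the rule in all, lists of this length would hold few or no members at that share. Their absence is thus not read as a result about these pathways. For the calls in these lists, the shares of all genes called in each mutant before rescaling stand above, beside the member counts. At 10 h no autophagy or peroxisome gene passed in Δos-1Δclr-3 or in any single mutant, and 4 of 22 fell in Δos-2Δclr-3 and 6 of 22 in Δcre-1Δclr-3, with none rising, where 20% and 27.7% of all genes fell. After rescaling none fell and 1 rose in Δos-2Δclr-3, and 2 fell and none rose in Δcre-1Δclr-3. Of the nitrogen genes 1 of 9 rose in Δos-1, in Δos-2 and in each double mutant, and 1 fell in Δcre-1 and 3 in Δcre-1Δclr-3, where none fell after rescaling. Of the light, clock and carotenoid genes none passed in Δclr-3 or Δos-1, 2 of 13 rose and 1 fell in Δos-2, 1 fell in Δcre-1, 2 rose and 2 fell in Δos-1Δclr-3, and 1 rose and 3 fell in Δos-2Δclr-3 and in Δcre-1Δclr-3. The hexose transport genes passed only as falls, 1 of 2 in Δos-1Δclr-3 and in Δos-2Δclr-3 and 2 in Δcre-1Δclr-3, and none of them passed after rescaling.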

How the data were processed

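RNA of Neurospora crassa mycelia was measured by sequencing in 42 libraries, 3 per group. The authors deposited 1 table of FPKM values per library, with bounds and a status per gene; per the submitters' processing notes the tools included HISAT2 2.0.5 and Cufflinks 2.2.1, with no role given. Which annotation release was used, and whether libraries kept strand, is not given in the sources used here. A whole-series table was not used. Depth was derived from how wide the deposited bounds of each FPKM are if fragments follow Poisson counting, and was 5.18 to 41.2 M fragments (M, 1000000). Gene names and coordinates come from a RefSeq table of build NC12.

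The limma package 3.58.1 (R 4.3.3) was fitted to log2(FPKM + 1), for the 18 libraries at 4 h and the 24 at 10 h apart, with 1 mean per group and a variance trend. Tested were genes that average 1 FPKM or more, and 12 genes with a failed estimate, none of them members, were left out. A call needs a Benjamini-Hochberg adjusted p under 0.05 over all genes tested and a log2 fold change of 1 or more in size, and ± after a fold change is its standard error. Fold changes on this scale understate the change of genes near 1 FPKM. The fit was tested on simulated data.

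Alternatives were pseudocounts of 0.1 and 5, no filter, median-ratio rescaling of libraries, a fit on the groups compared, the replicate number as a term, and leaving out each library. The members and lists were chosen with earlier results of these data known. Named are members with a symbol, the 10 of highest level, those of largest change in each comparison (6 at 4 h, 4 at 10 h), those next to a limit of the rule, and those in genomic runs; others were chosen after their values were seen. Sequences were not used here.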

Additional observations from a re-analysis of the deposited data

Results flagged for a closer look

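Under starvation at 10 h the effect of the clr-3 deletion differed between strain backgrounds for some named members, by limma's interaction test past the limits used for calls. Values are log2 differences, the effect in the other deletion strain minus the effect in wild type, and 3.11% of all genes passed for Δos-1, 4.62% for Δos-2 and 6.86% for Δcre-1. In Δos-1 the 6 named members were all positive: NCU04843 at 1.05, NCU02929 at 1.08, NCU01402 at 1.11, acu-3 at 1.14, NCU09575 at 1.31 and NCU04430 at 1.43. NCU04843 and NCU09575 each overlap another reference gene. In each background fewer members were called after rescaling, as given above, and which of the named ones stayed is not given here. Differences close to 1 in size, here and below, are those nearest to losing the call.

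In Δos-2 the differences were negative for NCU04430 (-1.42), NCU09992 (-1.19), acw-12 (-1.18), NCU02890 (-1.16), NCU01402 (-1.16), NCU07311 (-1.15), NCU02932 (-1.06), NCU16477 (-1.02) and NCU02579 (-1.003). They were positive for NCU02929 (1.36) and NCU09856 (1.47). NCU04430 and NCU01402 thus had differences of opposite sign in Δos-1 and Δos-2, both taken against the same Δclr-3 and wild type libraries. Those of NCU01402 lay near the limit of 1 in size, so its calls may depend on the scaling. NCU04430 was at 159, 194 and 177 FPKM in Δos-1Δclr-3 and 110.5, 189 and 144 FPKM in Δos-1, at 12.8, 14.4 and 16.1 FPKM in Δos-2Δclr-3 and 104, 83.7 and 82.2 FPKM in Δos-2, and at 23.5, 29.2 and 29.2 FPKM in Δclr-3 and 67.8, 72.7 and 46.1 FPKM in wild type.

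In Δcre-1 the differences were negative for NCU06555 (-1.75), NCU05639 (-1.15), NCU09856 (-1.12) and NCU17205 (-1.07), and positive for acu-6 (2.06). For acu-6 the Δcre-1Δclr-3 libraries stood at 1562, 1701 and 1805 FPKM and those of Δcre-1 at 84.2, 178 and 111 FPKM. The FPKM sums of conidia markers differed between these strains, and their part was not tested.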

How the results depend on the processing

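Over all comparisons, 189 of 204 alternative counts lay within 1.5 times the reported ones, and no call of a member turned its sign. Median-ratio rescaling gave 29 genes that meet the rule, 13 calls for Pccg1-clr-2 against wild type at 4 h, 5 for Δclr-3 at 10 h, 24 for Δos-2Δclr-3, 30 for Δcre-1Δclr-3 and 4 for the interaction with Δos-1. The mean of 3 in place of the median gave 176 genes, and a fit on only the groups compared gave 20 calls for Pccg1-clr-2 against wild type. Leaving out the farthest library of each 4 h group, chosen after seeing the data, gave 50 calls for Δclr-3 at 4 h. The cause of these moves was not tested. Counts of calls after rescaling or without a library are given without the share of all genes called in that setting. They describe only how far the counts moved.

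Leaving out 1 library at a time gave 85 to 295 genes that meet the rule, where wild type on Avicel replicate 2 (295) and replicate 3 (275) moved it most. The calls ran from 19 to 30 for Pccg1-clr-2 and 19 to 43 for Δclr-3 against wild type at 4 h, and from 25 to 32 for Pccg1-clr-2 against Δclr-3. At 10 h they ran from 8 to 11 for Δclr-3, 11 to 12 for Δos-1, 23 to 25 for Δos-2, 17 to 23 for Δcre-1, 14 to 17 for Δos-1Δclr-3, 47 to 50 for Δos-2Δclr-3 and 45 to 48 for Δcre-1Δclr-3. They ran from 26 to 33 for Δos-1 against Δos-2, 6 to 10 for the interaction with Δos-1, 10 to 16 with Δos-2 and 7 to 9 with Δcre-1. Single fold changes were followed only for the 34 of largest size in their comparison (6 at 4 h, 4 at 10 h). Of their 414 alternative values, 412 stayed past both limits. NCU09575 in Δclr-3 at 10 h fell under with a pseudocount of 5 (-0.93) and NCU02929 there with rescaling (-0.92). Being the largest, these 34 lay farthest from the limit, so the count does not speak for the other named fold changes. Several of those ended after rescaling, as given above.

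Replicate numbers were not taken to pair the samples, since in 0 of 11 comparisons were all 3 correlations of same-numbered deviations above 0.1 (lowest -0.375, highest 0.371). In 1 of 11, Δclr-3 against wild type at 4 h, every library correlated best with its own number. With the replicate block the count was unchanged in 12 of 14 comparisons; it was 30 for Pccg1-clr-2 and 33 for Δclr-3 against wild type at 4 h. FPKM values carry no read counts, and wild type on Avicel replicate 1, at 5.18 M implied fragments (M, 1000000), sets the weakest precision behind the rule.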
